A study of Mus musculus with 21 samples.

Results

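The comparison set mouse CD8 T cells cultured with a low dose of IL-2v against cells activated in the same way and given no cytokine, both on day 5. The members were all cells of the 2 libraries, 4747 with IL-2v at 5 IU/mL and 6112 without cytokine, and together they made 10859 of the 106458 cells of the series. The cells of both libraries were naive CD8 T cells of the OT1 line, which carries a transgenic T cell receptor for a peptide of ovalbumin, and both were activated on day 0 with beads that carry antibodies to CD3 and CD28. The treatment label of the IL-2v library names a mutant IL-2bg and that of the other library no exogenous cytokine. The age and sex of the mice and the number of mice or cultures behind each library are not given in the sources used here. RNA was counted in single cells as unique molecular identifiers (UMIs), each of which marks 1 captured RNA molecule. Each condition had 1 library, so no test was possible, no p-value was computed, and every difference below is a difference between these 2 libraries without a replicate check.

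IL-2 is a growth factor of activated T cells. Its receptor has an alpha chain (Il2ra), which raises affinity, and a beta chain (Il2rb) and common gamma chain (Il2rg), which bind the kinases JAK1 and JAK3 and activate the transcription factor STAT5. STAT5 induces its own inhibitors, such as the protein of Cish, and genes of survival and proliferation. IL-2 signalling also feeds the kinase mTORC1, under which activated T cells take up glucose, run glycolysis and make sterols and fatty acids for membranes. When the signal that follows activation fades, T cells leave the cell cycle and regain features of quiescent and memory cells, among them the IL-7 receptor (Il7r).

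The 2 libraries were close in depth. The IL-2v library held 18428827 UMIs with a median of 3491 UMIs and 1378 genes per cell, and the library without cytokine held 25673180 with medians of 3751 and 1407. Mitochondrial genes took 4.08% and 3.86% of the UMIs, and ribosomal protein genes 32.4% and 34.9%. The label of a CD8 T cell was borne out by its markers, with a UMI of Cd3d in 94.8% and 99.5% of the cells and of Cd8b1 in 82.2% and 91.1%. Cd4 was seen in 2 and 16 cells, while Zbtb7b, a regulator of the CD4 lineage, was seen in 4.49% and 2.52%. The B cell genes Cd79b and Ighd were seen in 4.74% and 3.48%, and in 3.29% and 2.70%. Foxp3, Ms4a1, Lyz2, Csf1r, C1qa, Col1a1, Pf4 and Hbb-bt were at 0 in both. Among markers of other cells, Cst3 was seen in 29.3% and 30.4% of cells and Trdc, of the T cell receptor delta chain, in 26.6% and 34.4%. The 6 CD8 T cell markers summed to 3420 and 5519 CPM, the 6 myeloid markers to 95.2 and 93.0 CPM, the 5 B cell markers to 22.7 and 16.9 CPM, and the 3 CD4 T cell markers to 12.3 and 6.82 CPM. The libraries shared 15 cell barcodes.

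UMIs were summed over all cells of a library and scaled to the total of the library as CPM, the usual unit that sets all library totals equal, and differences were taken as log2(CPM + 1), on which differences of weakly expressed genes come out too small. A level summed in this way cannot tell more expressing cells from more RNA per cell. Of 5869 genes that reached 20 CPM in at least 1 of the libraries, 572 stood 2-fold or more above with IL-2v (9.75%) and 154 stood 2-fold or more below (2.62%). These percentages are the background against which the counts of the lists below are set. The larger differences were mostly upward, with 4-fold or more reached by 200 higher and 18 lower genes. A filter on markers of B, myeloid, dendritic, erythroid and fibroblast cells and platelets marked 407 and 535 cells with 2 or more such UMIs. Without them the counts were 568 and 154. The filter did not use the markers of CD4 T cells, gamma delta T cells or NK cells. The median of all genes was 0.08. TMM scaling, which sets totals by a trimmed mean of gene ratios, moved that median to −0.07 and the counts to 466 higher and 217 lower genes.

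The 20 genes with the highest difference, among those whose larger level was 50 CPM or more, came largely from lipid synthesis, glycolysis and proliferation. Scd1, the desaturase that makes monounsaturated fatty acids, was at 57.6 CPM with IL-2v (95% Poisson interval 54.2 to 61.2) and 0.506 CPM without cytokine (0.270 to 0.866), a log2 difference of 5.28. Such intervals cover counting error only. The next genes were Mgarp, a mitochondrial protein linked to hypoxia (log2 difference 5.12), the long noncoding RNA Gm17767 (4.91), Aldoc, an aldolase of glycolysis (4.72), and Pygl, a glycogen phosphorylase (4.55). Others were AA467197 (4.42), Ifitm1, a membrane protein gene of the interferon-induced transmembrane family (3.89), Ndrg1 (3.88), Hist1h2ap (3.87), the mitophagy receptor gene Bnip3 (3.83) and Prelid2 (3.78). Further down stood Bcl2 (3.72), the lactate exporter gene Slc16a3 (3.70), Hist1h3c (3.66), Tpi1 (3.48), Gzmb (3.45), Idi1 (3.45), Pgk1 (3.44) and Mki67 (3.42). Ifitm1 had a UMI in 10.5% of IL-2v cells and 0.802% of cells without cytokine, so its level came from a minority of cells. Cells were also split into Mki67/Top2a-positive cells, with a UMI of either of these proliferation genes, and Mki67/Top2a-negative cells. In the negative cells, 19 of these 20 genes were also at least 2-fold higher, the exception being Mki67 itself, which the choice of cells sets to 0. Hist1h3c, at 5.88 CPM and 0.0477 CPM in negative cells, did not reach 20 CPM there.

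The 15 lowest genes included chemokines, transcriptional regulators and surface receptors, and 6 of them were on a list. Xcl1, a chemokine that attracts cross-presenting dendritic cells, was at 2.06 CPM with IL-2v (1.46 to 2.83) and 50.9 CPM without cytokine (48.1 to 53.7), a log2 difference of −4.08. It had a UMI in only 0.527% of IL-2v cells and 4.11% of cells without cytokine, so both levels came from few cells. The intervals take no account of UMIs that cluster in few cells. Id3, an inhibitor of E proteins found in memory precursors, stood at −3.08, 1110008P14Rik at −2.90, the chemokine gene Ccl5 at −2.89, Il7r at −2.85 and Nfkbia, the inhibitor of NF-kappaB, at −2.25. The others were Gm5914 (−2.18), Gm12840 (−2.15), Gm14085 (−2.14), Art2b (−2.14), the Helios gene Ikzf2 (−2.07), lymphotoxin beta (Ltb, −1.99), Ypel3 (−1.90), the chemokine receptor gene Cxcr3 (−1.86) and Slamf6 (−1.83). All 15 were also at least 2-fold lower in Mki67/Top2a-negative cells.

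Some of the 35 values are uncertain because reads may be shared with other genes. In GENCODE vM21, 11 of the 35 genes had over 15% of their exonic bases on a gene of the opposite strand, or over 15% of the 50-base stretches in their last 600 bases in transcripts of another gene. The 3′ sequence of Hist1h2ap was 93.1% shared, most with Hist1h2ao, that of Hist1h3c 49.5%, of Gm12840 43.2%, of Pgk1 41.8% with its retrogene Pgk1-rs7, of Idi1 35.1%, of Gm14085 34.3% with Slc28a2, of Bnip3 19.5% and of Scd1 15.8% with Scd2. Gm5914 lay over Ctcf on the opposite strand with 72.5% of its exonic bases, 1110008P14Rik over Ciz1 with 27.0%, Hist1h2ap over Gm44466 with 28.6%, Bnip3 over Gm45507 with 22.3% and Xcl1 over Gm20743 with 18.7%.

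**Figure D1:**
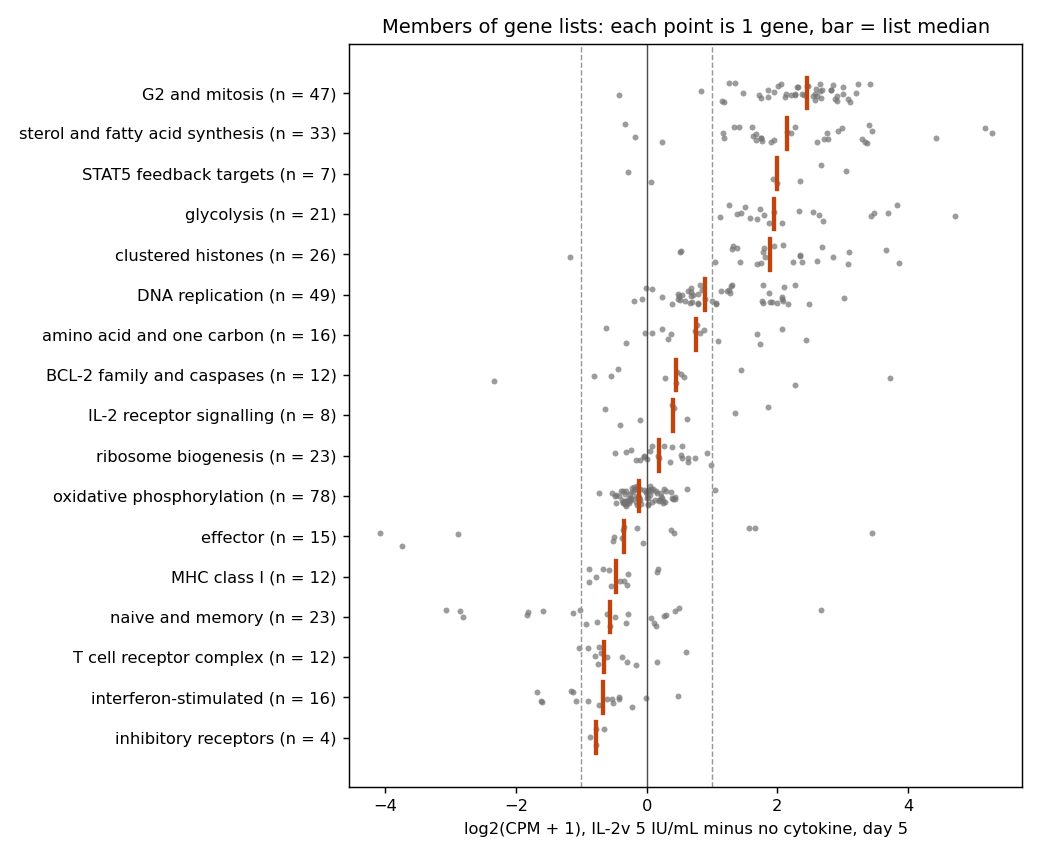
Log2(CPM + 1) differences between the IL-2v and the no-cytokine library of day 5 for the tested members of 17 gene lists, 1 point per gene, with the list median as a bar and dashed lines at 2-fold. All 21 tested glycolysis genes and 30 of 33 sterol and fatty acid genes lie to the right of the upper line, while the 12 T cell receptor complex genes lie between −1.03 and 0.61.

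Feedback targets of STAT5 were higher with IL-2v. Of 9 listed genes 7 were tested, and 5 of these were at least 2-fold higher and 0 lower (median log2 difference 1.99, against 0.08 for all genes). Socs2, a suppressor of cytokine signalling, was at 75.7 CPM with IL-2v and 8.26 CPM without cytokine (log2 difference 3.05). Cish was at 73.3 CPM (69.4 to 77.3) and 10.7 CPM, a log2 difference of 2.67. The survival kinases Pim2 and Pim1 stood at 2.35 and 1.99 and the phosphatase gene Dusp5 at 1.93. The feedback inhibitors Socs1 (156 and 149 CPM) and Socs3 (19.6 and 24.2 CPM) lay within 2-fold, so of 3 tested SOCS genes only Socs2 stood apart. In single cells thinned to 2000 UMIs each, Pim1 had a UMI in 48.8% of IL-2v cells (exact 95% interval 47.3 to 50.3) and 15.5% of cells without cytokine (14.6 to 16.4), and Cish in 12.7% (11.8 to 13.7) and 1.83% (1.51 to 2.20). Naive cells of day 0 had Cish in 0.962%.

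Of the receptor genes, Il2ra was at 126 CPM with IL-2v and 34.0 CPM without cytokine (log2 difference 1.86), and Il2rb at 366 and 142 CPM (1.36). The gamma chain went the other way within 2-fold, with Il2rg at 248 and 386 CPM (−0.63). Il2rg shares 30.5% of its exonic bases with the gene model Gm20489, so its value is uncertain. The kinases and STAT genes of the pathway were within 2-fold, from −0.41 for Jak1 to 0.62 for Jak3. Il2ra had a UMI in 21.5% of IL-2v cells and 6.18% of cells without cytokine, and Il2rb in 48.9% and 22.6%. Both chains were seen together in 11.1% of IL-2v cells (10.2 to 12.1) and 1.57% of cells without cytokine (1.27 to 1.91). Il2rb was seen in 51.8% of IL-2v cells with an Il2ra UMI and 48.2% of those without one. The same shares without cytokine were 25.3% and 22.5%, so the joint shares mostly follow the single ones.

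The Cish promoter is shown because the STAT5 motif is printed within it more than once. In RefSeq promoters (GRCm38.p6), each from 250 bases before to 50 after a start, 7 of the 9 listed genes were matched, with 8 promoters. The motif TTCNNNGAA, read on both strands, was in 3 of these 8 promoters (37.5%) and in 8.30% of all 32851 promoters of the table. They were those of Cish, Socs3 and Lta, and of these genes Cish was at least 2-fold higher, Socs3 was within 2-fold and Lta did not reach 20 CPM. In the Cish promoter, chr9:107296409-107296708 on the plus strand, the 2 matches begin at bases 1 and 12 from the start and stand in capitals.
Cish: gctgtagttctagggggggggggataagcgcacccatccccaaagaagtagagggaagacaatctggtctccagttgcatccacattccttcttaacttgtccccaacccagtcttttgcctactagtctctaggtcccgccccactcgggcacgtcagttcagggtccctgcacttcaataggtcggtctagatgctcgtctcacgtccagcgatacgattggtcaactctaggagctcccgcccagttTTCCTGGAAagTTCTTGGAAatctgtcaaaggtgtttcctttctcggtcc

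**Figure D2:**
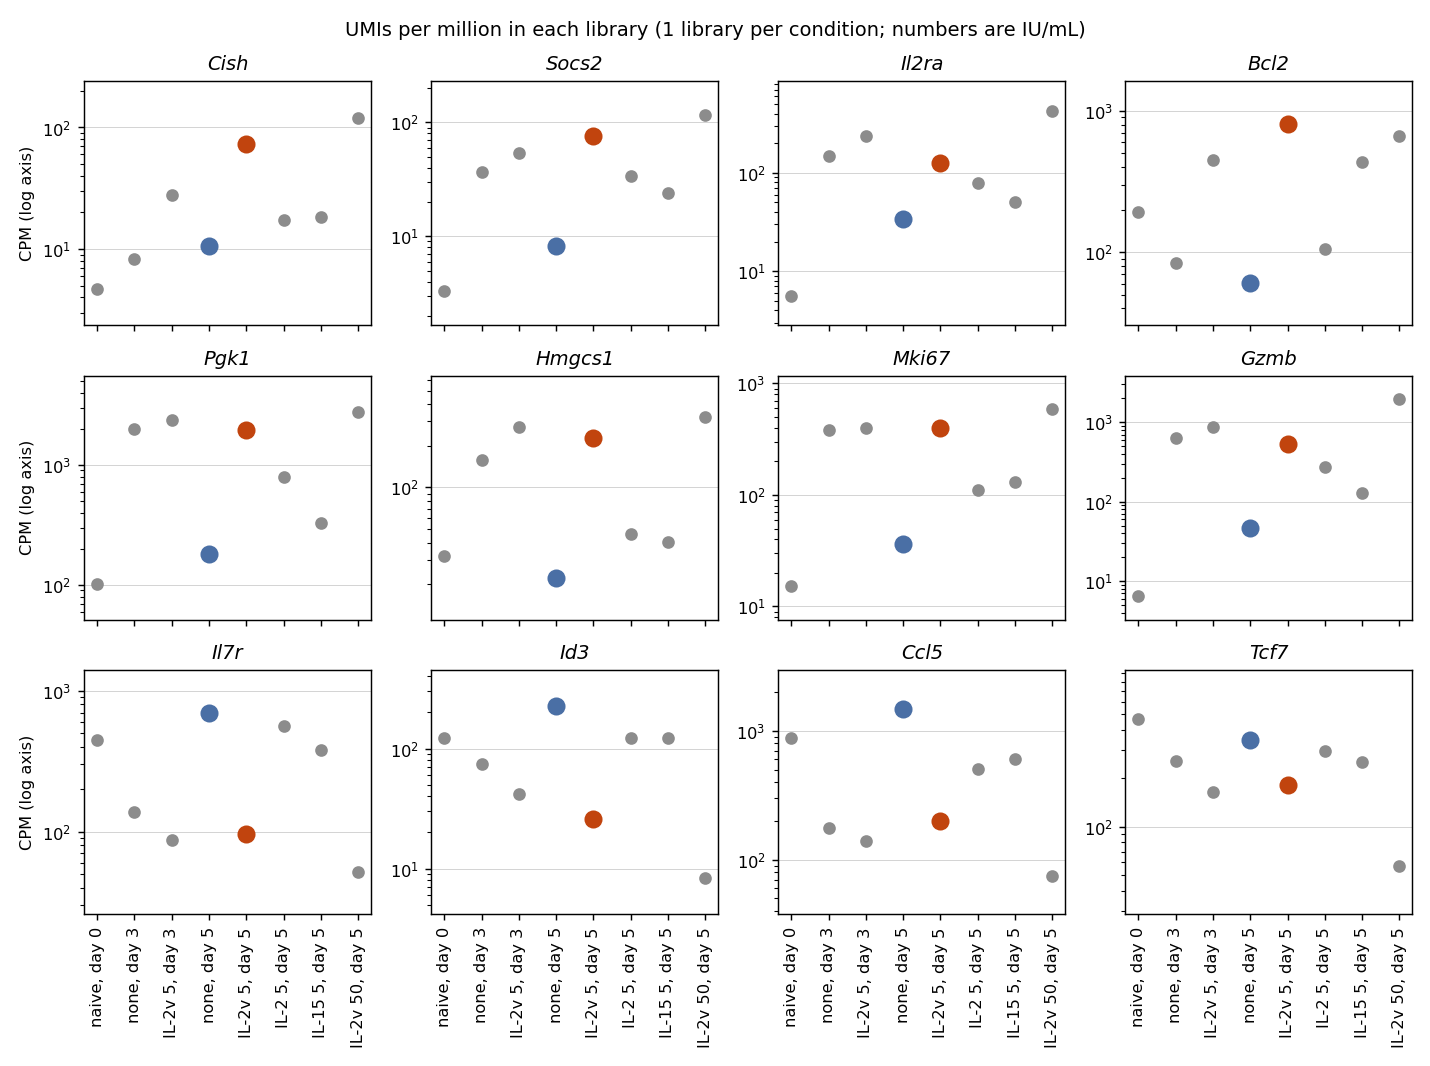
CPM on a log axis for 12 genes in 8 libraries, 1 point per library, with the IL-2v library of day 5 in red and the no-cytokine library of day 5 in blue. For Cish the red point (73.3 CPM) lies above both day 3 points (27.8 and 8.27 CPM), while for Mki67 the red point (398 CPM) lies beside them (396 and 379 CPM).

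Glycolysis genes were higher throughout. The list also holds glucose and lactate transporters, Pdk1, which restrains entry of pyruvate into the mitochondrion, and Bnip3, which is not of the pathway and acts in mitophagy. Of 22 listed genes 21 were tested, and all 21 were at least 2-fold higher with IL-2v (20 of 21 under TMM scaling, where Slc16a1 fell short), with a median log2 difference of 1.95 and a range of 1.13 to 4.72. Along the pathway, the glucose transporter genes Slc2a1 and Slc2a3 stood at 1.73 and 1.58 and hexokinase 2 (Hk2) at 2.71. Pfkfb3, which makes the activator of phosphofructokinase, stood at 2.34, aldolase A (Aldoa) at 2.55 and Gapdh at 1.44. Phosphoglycerate kinase (Pgk1) was at 1956 CPM with IL-2v and 180 CPM without cytokine (3.44), triosephosphate isomerase (Tpi1) at 923 and 81.6 CPM (3.48), and pyruvate kinase (Pkm) at 1531 and 245 CPM (2.64). Lactate dehydrogenase (Ldha) stood at 1.79, and among the lactate transporters Slc16a3 at 3.70 and Slc16a1 at 1.13. Other annotated genes, pseudogenes among them, share at least 29.7% of the 3′ sequence of Gapdh, Pgk1, Pgam1, Eno1 and Pkm, whose values are uncertain for that reason.

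The difference in glycolysis was spread over most cells. At 2000 UMIs per cell, the median cell held 29 UMIs of the list with IL-2v and 6 without cytokine, and 90.5% of IL-2v cells lay above the 95th percentile of cells without cytokine, which was 12 UMIs. The share was 89.3% among Mki67/Top2a-positive cells and 91.6% among negative cells, each set against the 95th percentile of its own class. Ldha had a UMI in 91.0% and 49.2% of cells, and Pgk1 in 92.7% and 27.5%. Pgk1, Tpi1, Myc, Ccr7, Cd27 and Xcl1 were added to the genes followed in single cells after their levels had been seen.

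The promoter of Pgk1 is shown for the core of the hypoxia response element, ACGTG, a motif chosen after the glycolysis values had been seen. It was in 18 of the 34 promoters of the 21 matched genes of the glycolysis list (52.9%), Bnip3 among them, on either strand, and in 19.6% of all promoters. In chrX:106186850-106187149 on the plus strand the 2 matches, in capitals, begin 150 and 131 bases before the start.
Pgk1: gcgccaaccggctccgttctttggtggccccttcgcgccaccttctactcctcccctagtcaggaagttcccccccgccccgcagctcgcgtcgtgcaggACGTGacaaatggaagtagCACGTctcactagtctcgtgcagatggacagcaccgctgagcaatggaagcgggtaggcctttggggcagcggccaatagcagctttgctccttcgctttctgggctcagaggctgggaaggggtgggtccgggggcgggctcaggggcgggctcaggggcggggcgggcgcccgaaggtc

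Oxidative phosphorylation did not share this shift. Of 78 tested nuclear genes of the respiratory chain, 1 was at least 2-fold higher (0 under TMM scaling) and 0 lower (median log2 difference −0.11). Of 14 tested genes of the citric acid cycle 0 were higher and 1, Idh2 (27.9 CPM with IL-2v, 61.2 CPM without cytokine), was lower (median −0.05). The 11 tested genes of fatty acid oxidation were all within 2-fold (median 0.12, and −0.02 under TMM scaling). Constitutive proteasome genes (34 tested) and ribosomal protein genes (79 tested) were also within 2-fold, with 1 ribosomal protein gene lower under TMM scaling.

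Sterol and fatty acid synthesis genes were mostly higher with IL-2v. Of 35 listed genes 33 were tested, with 30 at least 2-fold higher, 0 lower and a median log2 difference of 2.15. The median was 1.52 with a pseudocount of 10 CPM and 3.32 over the 8 genes that reached 100 CPM in the higher library. For all 8 the higher library was that of IL-2v. That filter thus picks genes by a high level with IL-2v, and the median of 3.32 is no separate support. Hmgcs1, which makes the precursor of mevalonate, was at 227 CPM with IL-2v and 22.1 CPM without cytokine (3.30). The later enzymes Idi1 (3.45), Fdps (3.38), Cyp51 (3.33), Lss (2.99) and Sqle (2.76) stood at similar heights. Of the fatty acid genes, the synthase gene Fasn stood at 1.95, Acly at 1.62, Scd2 at 3.41 and Acaca at 1.41. The regulators Srebf2 and Srebf1 stood at 1.68 and 1.76 and the feedback sensor Insig1 at 2.61. The members that lay within 2-fold were Acss2 (−0.33), Ebp (−0.17) and Elovl6 (0.23).

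Sterol genes differed between cell classes more than glycolysis genes did. At 2000 UMIs per cell, Mki67/Top2a-positive IL-2v cells held a median of 7 UMIs of the sterol and fatty acid list and the others a median of 4, while in both classes without cytokine the median was 1. The share of IL-2v cells above the 95th percentile of the same class without cytokine was 69.5% and 51.0%. Hmgcs1 itself had a UMI in 40.5% of positive (38.1 to 43.0) and 21.8% of negative IL-2v cells (20.3 to 23.3), and 3.91% of all cells without cytokine. Over Mki67/Top2a-negative cells, 25 of 29 tested list members were at least 2-fold higher (median 1.79).
The promoter of Hmgcs1 is shown because it is 1 of 3 among the 30 promoters of the 25 matched genes (10.0%) with the sterol regulatory element TCACNCCA on either strand, a motif chosen after the values had been seen and present in 4.36% of all promoters. The others were those of Msmo1 and Srebf2. In chr13:119690101-119690400 on the plus strand the match begins 137 bases before the start.
Hmgcs1: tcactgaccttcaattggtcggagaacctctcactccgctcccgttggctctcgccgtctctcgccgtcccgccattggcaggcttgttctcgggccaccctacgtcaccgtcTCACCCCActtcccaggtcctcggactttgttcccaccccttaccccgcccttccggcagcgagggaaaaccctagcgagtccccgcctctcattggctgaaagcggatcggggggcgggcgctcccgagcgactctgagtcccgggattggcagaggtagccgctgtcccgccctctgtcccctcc

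**Figure D3:**
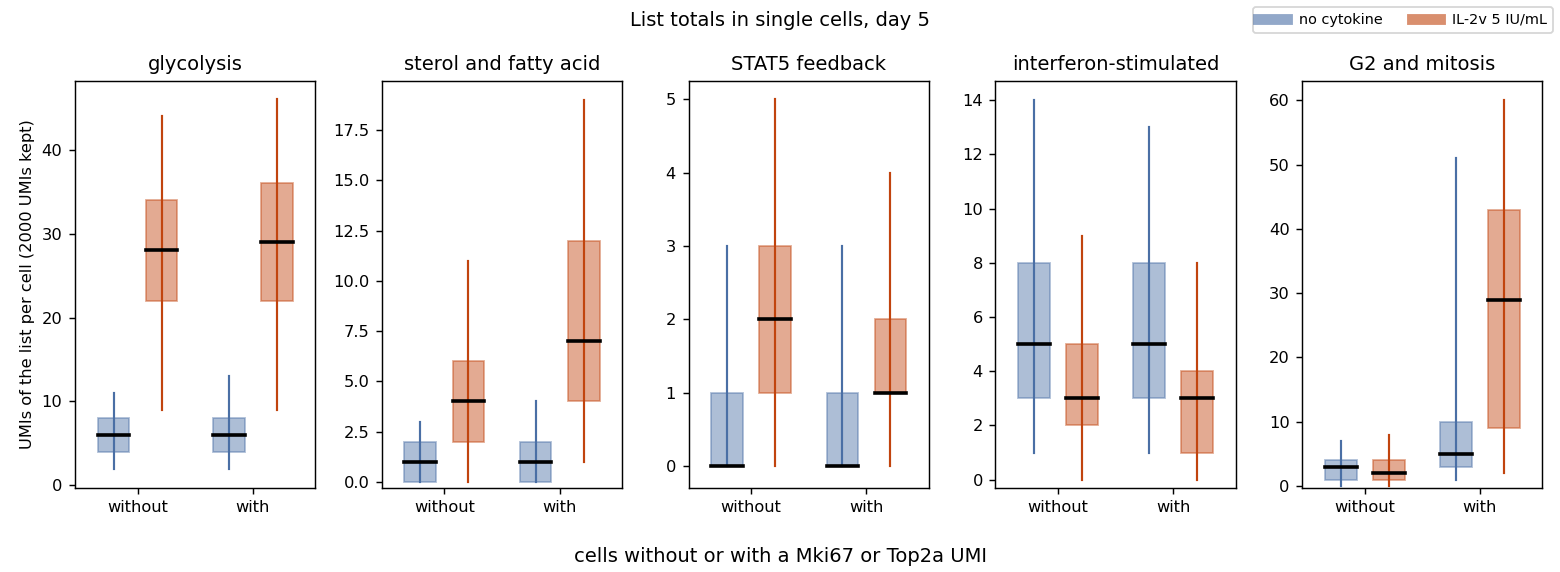
UMIs of 5 gene lists per cell after thinning each cell to 2000 UMIs, in Mki67/Top2a-negative and -positive cells, for the no-cytokine (blue) and the IL-2v library (red). Lines run from the 5th to the 95th percentile of cells, boxes from the 25th to the 75th, and black bars mark medians. For glycolysis the medians are 6 and 28 UMIs in negative and 6 and 29 UMIs in positive cells.

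Most tested genes of G2 and mitosis were higher with IL-2v, and a larger share of single cells had a proliferation marker. After thinning to 2000 UMIs, 34.2% of IL-2v cells (32.8 to 35.6) and 8.30% of cells without cytokine (7.61 to 9.02) had a UMI of Mki67, which marks cycling cells, or of Top2a, a topoisomerase of S and G2 phase. Without thinning the shares were 39.8% and 13.8%. On day 3 the shares at 2000 UMIs were 57.3% with IL-2v and 51.1% without cytokine. Naive cells stood at 1.83%. With at least 3 UMIs of the G2 and mitosis list as the rule, whatever the Mki67 and Top2a UMIs, 63.1% and 54.9% of the day 5 cells passed. The 75th percentile of naive cells was also 3 UMIs of this list, so that rule does not mark cycling cells alone.

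Of 51 listed G2 and mitosis genes 47 were tested, with 45 at least 2-fold higher, 0 lower and a median of 2.46 (1.60 with a pseudocount of 10 CPM). Mki67 was at 398 CPM with IL-2v and 36.3 CPM without cytokine, Top2a at 740 and 104 CPM (2.82), the kinesin gene Kif11 at 105 and 10.2 CPM (3.24), and the mitotic kinase gene Plk1 at 54.3 and 6.35 CPM (2.91). Of 49 tested genes of DNA replication 24 were at least 2-fold higher and 0 lower (median 0.90), and of 26 tested clustered histone genes, many of which are near-identical copies, 23 were higher and 1, Hist3h2ba, lower (1.88). In Mki67/Top2a-positive cells 43 of 50 tested G2 and mitosis genes were still higher and 0 lower (median 1.45), and 19 of 55 DNA replication genes (0.75). In the negative cells, which were chosen for lacking 2 genes of the first list, 11 of its genes were tested (0.29), and 23 genes of DNA replication (−0.15).

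Mki67/Top2a-positive cells were not alike in the 2 libraries. They held a median of 29 UMIs of the G2 and mitosis list with IL-2v and 5 without cytokine, at equal depth. In the library without cytokine, 73.3% of the unthinned Mki67 and Top2a UMIs lay in the 372 cells (6.09%) with over 2 times the library's median UMIs, which held 13.7% of all UMIs. With IL-2v, 26.4% of them lay in the 268 such cells (5.65%), which held 12.2%. Without these large cells 44 of 46 tested G2 and mitosis genes were higher, with a median of 3.65, and 31.5% of IL-2v cells and 6.68% of cells without cytokine were Mki67/Top2a-positive at 2000 UMIs. Large cells and droplets with more than 1 cell cannot be told apart here. A share of cells with a UMI without cytokine may also hold free RNA, since no cell type that lacks these genes was present to measure it.

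The promoter of Mki67 is shown for the cell cycle homology region, the motif TTTGAA of many G2 and mitosis genes. On either strand it was in 34 of the 48 promoters of the 44 matched genes (70.8%) and in 17.9% of all promoters. The E2F motif TTTNGCGC was in 11 of the 52 promoters of 46 matched DNA replication genes (21.2%) and in 1.38% of all promoters. In the Mki67 promoter, chr7:135716330-135716629 on the minus strand, the 2 matches begin 116 and 98 bases before the start.
Mki67: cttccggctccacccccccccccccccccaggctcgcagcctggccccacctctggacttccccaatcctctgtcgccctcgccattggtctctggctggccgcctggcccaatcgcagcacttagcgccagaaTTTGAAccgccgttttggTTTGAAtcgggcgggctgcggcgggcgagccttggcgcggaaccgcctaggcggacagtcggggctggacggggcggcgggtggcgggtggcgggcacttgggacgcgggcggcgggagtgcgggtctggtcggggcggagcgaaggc

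Differences outside the cell cycle were examined within cell classes, since a larger share of cycling cells adds its genes to a library's sum. In Mki67/Top2a-negative cells, 367 of 5627 tested genes were at least 2-fold higher with IL-2v (6.52%) and 140 lower (2.49%). In positive cells, 658 of 6010 were higher (10.9%) and 151 lower (2.51%). Of the 572 higher genes of all cells, 408 reached 20 CPM in negative cells and 318 were at least 2-fold higher there too, while 116 of the 154 lower genes were also lower there. The medians of the glycolysis list were 1.94 and 2.004 in negative and positive cells, those of the STAT5 feedback list 2.26 and 2.06, and those of the interferon list −0.56 and −0.66. The medians of the sterol and fatty acid list were 1.79 and 2.26, and those of the amino acid and one carbon list 0.31 and 0.80. For these sums the class was read before thinning, which put 1887 IL-2v cells and 846 cells without cytokine in the positive class, with medians of 4363 and 4534 UMIs, against 3218 and 3666 UMIs in the negative class. A class drawn from 2 genes is a range of cells and not a cell type.

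**Figure D4:**
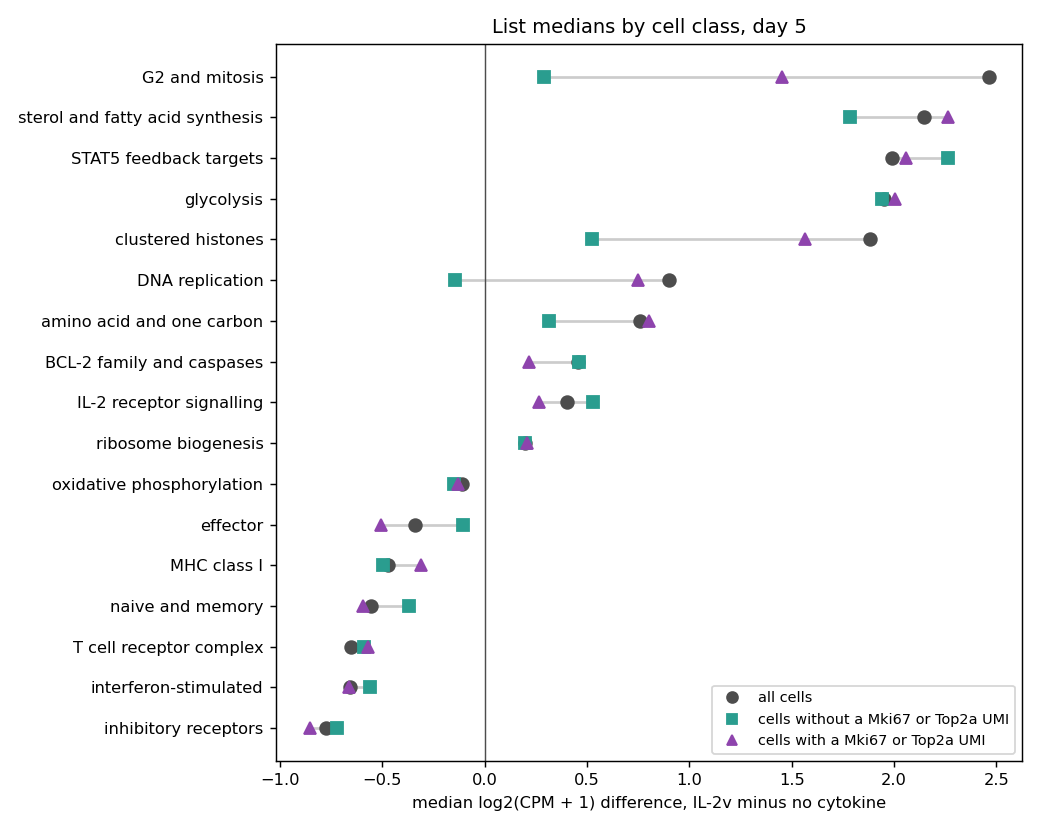
Median log2(CPM + 1) differences of 17 gene lists between IL-2v and no cytokine over all cells (circles), Mki67/Top2a-negative cells (squares) and positive cells (triangles). The G2 and mitosis median is 2.46 over all cells (47 genes), 1.45 in positive cells (50 genes) and 0.29 in negative cells (11 genes), which were chosen for lacking 2 genes of that list.

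Survival genes split. Bcl2, the anti-apoptotic gene that gave the family its name, was at 813 CPM with IL-2v (800 to 826) and 60.8 CPM without cytokine (57.8 to 63.9). It had a UMI in 78.6% of IL-2v cells and 10.4% of cells without cytokine, and in 27.8% of naive cells. Bcl2 stood at 452 CPM with IL-2v and 84.0 CPM without cytokine on day 3, and on day 5 at 105 CPM with 5 IU/mL IL-2, 432 CPM with 5 IU/mL IL-15 and 663 CPM with 50 IU/mL IL-2v. Thus the IL-2v library of day 5 held the highest of the 8 levels and the library without cytokine the lowest. Bcl2l1, which encodes BCL-XL, stood at a log2 difference of 2.26, and the pro-apoptotic Bcl2l11, which encodes BIM, also stood above, at 1.44. Bcl2a1b was lower (5.26 and 30.6 CPM), but shares 89.3% of its 3′ sequence with Bcl2a1d. Mcl1 (−0.81) and the other 7 of the 12 tested members lay within 2-fold.

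Growth and transcription factor genes followed in part. Myc, a driver of growth, was at 209 CPM with IL-2v and 55.1 CPM without cytokine (log2 difference 1.90) and had a UMI in 32.3% and 9.28% of cells. Its targets in polyamine synthesis, Odc1 (0.03), Srm (−0.33) and Sms (−0.28), lay within 2-fold, as did all 23 tested ribosome biogenesis genes (median 0.20). Of 10 tested cell cycle regulators 3 were at least 2-fold higher, Cdk6 (2.09), Cdkn2c (1.02) and Rbl1 (1.02), and 1 under TMM scaling. Of the others in that list, the D cyclins Ccnd2 and Ccnd3 stood at −0.05 and 0.27, and the inhibitor gene Cdkn1b at −0.35. Among amino acid and one carbon genes 5 of 16 tested were at least 2-fold higher and 0 lower, namely the formate enzyme gene Mthfd1l (2.44), the leucine transporter gene Slc7a5 (2.07), Psat1 (1.73), the transcription factor gene Atf4 (1.69) and Aldh18a1 (1.09). In Mki67/Top2a-negative cells 2 of 13 tested genes of this list were higher, and its median was 0.31 against 0.76 over all cells. Of the activation factors, Jun (1.80), Nfil3 (1.24) and Bhlhe40 were at least 2-fold higher, and the other 5 tested, among them Irf4 (0.91) and Batf (−0.15), were not. Over all 18 listed activation factors with no minimum level, 5 were higher and 3 lower, with a median of 0.02.

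Genes of naive and memory cells did not move as 1 block. Of 27 listed genes 23 were tested, with 8 at least 2-fold lower (9 under TMM scaling), 1 higher and a median of −0.56. With a pseudocount of 10 CPM 7 were lower. In Mki67/Top2a-negative cells 6 were lower (median −0.37) and in positive cells 8 (−0.59). Il7r was at 96.3 CPM with IL-2v (91.8 to 101) and 700.0 CPM without cytokine (690 to 710), and Id3 at 25.7 and 224 CPM. The others lower were Myb (−2.81), Slamf6 (−1.83), the antiproliferative gene Btg1 (−1.81), Actn1 (−1.59), the lymph node homing receptor gene Ccr7 (−1.12) and the costimulator gene Cd27 (−1.02). Tcf7, the transcription factor of memory T cells, stood at −0.92 (183 and 348 CPM) and its relative Lef1 at −0.56. In contrast S1pr1 (0.07), Satb1 (0.11), Foxo1 (0.15) and Dapl1 (0.50) lay within 2-fold. Igfbp4 was higher (27.8 and 3.51 CPM), and its naive level was 137 CPM.

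Shares of single cells were taken for 6 of these genes. Il7r had a UMI in 16.4% of IL-2v cells and 68.3% of cells without cytokine, Id3 in 4.43% and 30.6%, Ccr7 in 21.1% and 40.3%, Cd27 in 29.0% and 51.4%, and Tcf7 in 28.2% and 48.5%. Klf2 lay closer, at 44.5% and 48.8%. Within the IL-2v library Tcf7 was seen in 23.0% of Mki67/Top2a-positive and 30.9% of negative cells.

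**Figure D5:**
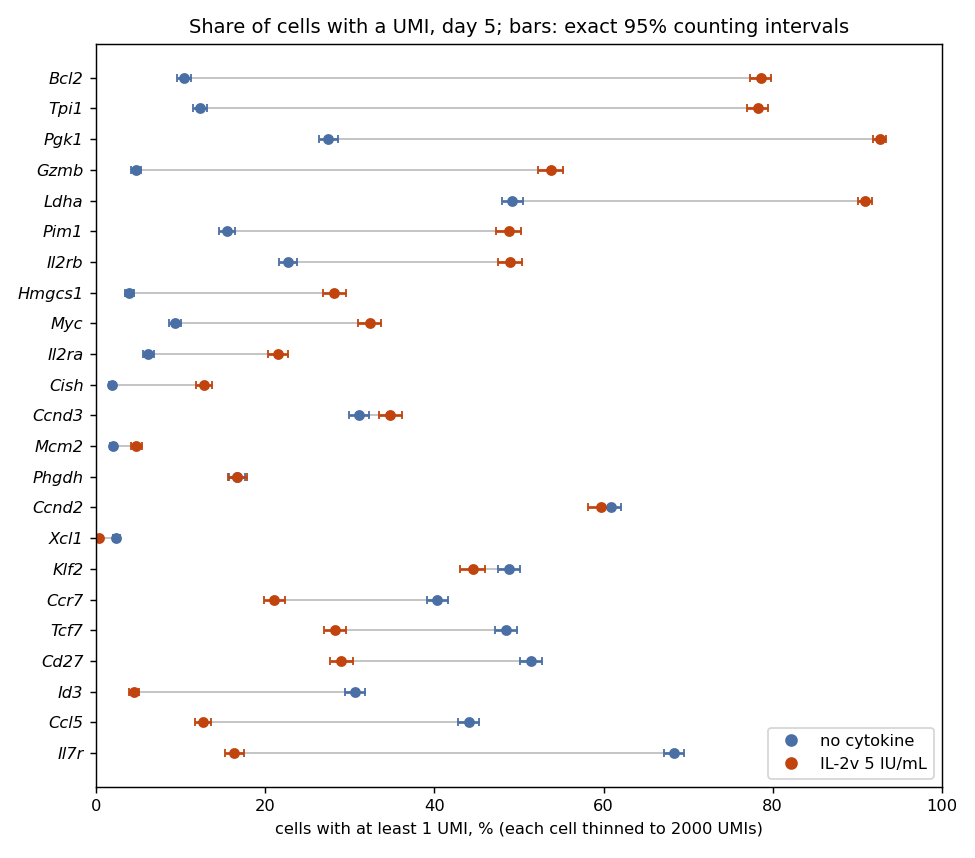
Share of cells with at least 1 UMI of 23 genes after thinning each cell to 2000 UMIs, for the no-cytokine (blue) and the IL-2v library (red) of day 5, with exact 95% intervals for counting error. The widest upward gap is that of Bcl2 (10.4% and 78.6%) and the widest downward gap that of Il7r (68.3% and 16.4%), and the points of Phgdh lie on each other at 16.7%.

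Effector genes differed in both directions. Gzmb, the cytotoxic protease granzyme B, was at 526 CPM with IL-2v and 47.2 CPM without cytokine (log2 difference 3.45), while the chemokine genes Ccl5 (199 and 1482 CPM), Ccl4 (1.74 and 35.6 CPM, −3.74) and Xcl1 were lower. Of 31 listed effector genes 15 were tested, with 3 higher (Gzmb, Eomes at 1.66 and Serpinb6b at 1.57), 3 lower and a median of −0.34. Gzmb had a UMI in 53.7% of IL-2v cells (52.3 to 55.2), 4.68% of cells without cytokine (4.16 to 5.25) and 0.738% of naive cells. With IL-2v, cells with a Tcf7 UMI had a Gzmb UMI in 45.6% (42.8 to 48.3) and cells without one in 57.0% (55.2 to 58.7), so that 12.9% of all IL-2v cells held both, against 1.02% without cytokine. Without cytokine, Gzmb was seen in 2.10% of cells with a Tcf7 UMI and 7.11% of those without one. For Gzmb and Ccl5 together the shares were 8.13% with IL-2v and 3.00% without cytokine. Gzmb was seen in 64.5% of IL-2v cells with a Ccl5 UMI and 52.2% of those without one, and in 6.81% and 3.01% without cytokine. In both libraries Gzmb was thus seen less often in cells with a Tcf7 UMI and more often in cells with a Ccl5 UMI.

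Inhibitory receptor genes were few, and over all cells they lay within 2-fold. Of 10 listed 4 were tested, Ctla4 (−0.87), Tox (−0.78), Lag3 (−0.77) and Cd160 (−0.65), and under TMM scaling 1 of them passed 2-fold lower. In Mki67/Top2a-negative cells 1 of 5 tested was at least 2-fold lower (−1.02), and in positive cells 1 of 4 (−1.14). The costimulator gene Tnfrsf9, which encodes 4-1BB, was at 96.4 CPM with IL-2v and 10.3 CPM without cytokine (3.11), and the other 5 tested costimulators were within 2-fold. Of 9 tested receptors for other cytokines 3 were at least 2-fold higher, Il18rap (2.37), Il12rb2 (1.44) and Il18r1 (1.36), 1 was lower, Il27ra (−1.15), and 5 lay within 2-fold. Il12rb2 lies over Serbp1 on the opposite strand with 40.0% of its exonic bases. Of homing genes Ccr2 was higher (1.45) and the integrin genes Itgae (4.29 and 40.9 CPM, −2.99) and Itga4 (−1.49) and the receptor gene Cxcr3 were lower.

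Some interferon-stimulated genes were lower with IL-2v, while nearly all genes of the antigen receptor lay within 2-fold. Of 26 listed interferon genes 16 were tested, with 6 at least 2-fold lower (8 under TMM scaling), 0 higher and a median of −0.66. Among them were Isg15 (11.4 and 38.7 CPM, −1.67), Isg20 (−1.62), Rtp4 (−1.60), Zbp1 (−1.15) and Irf7 (−1.12). In single cells 0.465% of IL-2v cells lay above the 95th percentile of cells without cytokine for this list. All 12 tested genes of MHC class I presentation lay within 2-fold (median −0.47), with H2-D1 at 1281 and 2370 CPM, and 2 passed 2-fold lower under TMM scaling. Of 12 T cell receptor complex genes 1, Trbc2 (1712 and 3492 CPM), was lower (2 under TMM scaling, 0 in Mki67/Top2a-negative cells), with Cd3d at 937 and 1750 CPM and a median of −0.65. The 9 GIMAP genes lay within 2-fold, from −0.92 to −0.17, with 1 past 2-fold under TMM scaling.

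Day 3 places the day 5 libraries. On day 3, 12 of 5675 tested genes were at least 2-fold higher with 5 IU/mL IL-2v than without cytokine (0.211%) and 4 lower (0.0705%), so the pair had little distance between its libraries then. Of the 572 genes higher on day 5, 10 were at least 2-fold higher on day 3 and 508 were above 0 (88.8%), against 67.6% of all 5869 genes tested on day 5. Of the 154 lower genes 1 was at least 2-fold lower on day 3 and 124 were below 0 (80.5%), against 32.4% of all tested genes. The level of the day 3 library without cytokine was nearer to that of the day 5 IL-2v library than to that of the day 5 library without cytokine for 454 of the 572 higher (79.4%) and 119 of the 154 lower genes (77.3%), against 61.1% of all tested genes. That day 3 level lay above both day 5 libraries for 189 of the 572 higher genes, between them for 359 and below both for 24. For the 154 lower genes it lay above both for 5, between them for 99 and below both for 50. Summed over the list, glycolysis stood at 13523 CPM on day 3 without cytokine, 13839 CPM on day 5 with IL-2v and 3090 CPM on day 5 without cytokine. The sterol and fatty acid list stood at 2388, 2995 and 587 CPM in the same order, and that of STAT5 feedback at 517, 988 and 353 CPM. On day 3 with IL-2v the sums were 16986 CPM for glycolysis, 3547 CPM for the sterol and fatty acid list and 851 CPM for STAT5 feedback. The day 5 IL-2v library thus lay between the day 3 libraries in the first and second of these lists and above both in STAT5 feedback. In DNA replication it lay below both, at 2786 CPM against 5168 CPM with IL-2v and 4234 CPM without cytokine on day 3. In G2 and mitosis it also lay below both, at 7193 CPM against 8489 and 7836 CPM in the same order.

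Other cytokines at the same labelled number of IU/mL and the same day are set side by side as levels, since the comparisons share the library without cytokine. Whether these units are equal in amount or strength between cytokines was not tested. The glycolysis list summed to 5333 CPM with 5 IU/mL IL-2 and 3256 CPM with 5 IU/mL IL-15, against 13839 CPM with IL-2v. At 50 IU/mL IL-2v it was 18103 CPM. The G2 and mitosis list summed to 3396 CPM with IL-2, 3866 with IL-15, 7193 with IL-2v and 9029 with the higher dose of IL-2v. Il7r ran from 560 CPM with IL-2 and 380 with IL-15 to 96.3 with IL-2v and 51.5 with the higher dose. Ifitm1 was at 327 CPM with IL-2, 16.1 with IL-15, 147 with IL-2v and 832 with the higher dose, so IL-2 and not IL-2v held the higher level at 5 IU/mL. The shares of Mki67/Top2a-positive cells were 12.4% with IL-2, 15.1% with IL-15, 34.2% with IL-2v and 60.1% with the higher dose.

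In GENCODE vM21 (GRCm38, the build of the name mm10 in the submitters' processing notes), matched by symbol, Bcl2 lies on chromosome 1 from 106538178 to 106714274, Socs2 on chromosome 10 from 95385362 to 95417180, Cish on chromosome 9 from 107296026 to 107302784 and Il2ra on chromosome 2 from 11642807 to 11693193. Scd1 lies on chromosome 19 from 44394455 to 44407879, Pgk1 on chromosome X from 106187100 to 106203699, and Gzmb on chromosome 14 from 56258838 to 56262260. The Il7r gene spans 9505788 to 9530176 of chromosome 15, and Xcl1 lies on chromosome 1 from 164931644 to 164935527. All are protein-coding, and the counts were given per gene symbol, so exons and introns were not told apart.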

How the data were processed

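The authors deposited raw UMI counts per gene symbol and cell barcode, 1 table per library, with 17516 gene symbols in each. Per the submitters' processing notes, Cell Ranger, Seurat 4.0.1 and Seurat 3.0.2 and the build mm10 were used. Their roles, the annotation and any removal of doublets are not given in the sources used here. The labels' extraction protocol describes T cells sorted from tumours and the growth protocol describes culture, and the libraries were treated as cultured cells. No cell was left out of the sums. Members, lists and the rule for naming genes were chosen with earlier results of these data known. Named genes were the 20 highest and 15 lowest by log2(CPM + 1) among genes whose larger level was 50 CPM or more, and members of 31 lists. Exact intervals (95%, Clopper-Pearson or Poisson) cover counting error only. For shares, cells with under 2000 UMIs were left out (4512 and 6003 cells remained). The TMM factors came from edgeR 4.0.16 in R 4.3.3. Other steps used Python 3.11.15, NumPy 2.4.6, SciPy 1.17.1 and pandas 2.3.3. The code of the fold counts was checked on simulated Poisson counts with planted changes. That simulation held no spread between cells or cultures, so it says nothing of how the counts of genes would repeat. No doublet caller was run. Alternatives covered cell filters, scaling, pseudocount, filter on low genes and cell classes. A few genes of the lists are not reported here, though the counts include them.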

Additional observations from a re-analysis of the deposited data

How the results depend on the processing

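With 1 library per condition, no replicate could be left out and the precision rests on counting alone. No paired analysis was possible because each condition had 1 library and no test was made. The counts of genes at least 2-fold higher and lower were 572 and 154. They became 1208 and 291 with no filter on low genes, 150 and 64 with a minimum of 100 CPM, 399 and 89 with a pseudocount of 10 CPM, 690 and 209 with totals without ribosomal protein and mitochondrial genes, and 367 and 140 in Mki67/Top2a-negative cells. The median of all genes became −0.0731 under TMM scaling. The share of Mki67/Top2a-positive cells was 27.3% with IL-2v and 4.86% without cytokine at 1000 UMIs per cell. It was 39.8% and 13.8% without thinning, and 31.5% and 6.68% without cells over 2 times the median UMIs, higher with IL-2v under each. Under another rule, at least 3 UMIs of the G2 and mitosis list, 63.1% and 54.9% of cells passed. That rule does not mark cycling cells alone, since 3 UMIs was also the 75th percentile of naive cells. Of 339 list medians recomputed under the alternatives, 323 kept their sign and moved by under 1.5 times in fold, 9 moved further and 7 changed sign. Those that moved further were G2 and mitosis (3.6465 without cells over 2 times the median UMIs, 1.601 with a pseudocount of 10 CPM, 0.2873 in Mki67/Top2a-negative cells), sterol and fatty acid (1.5221 with that pseudocount, 3.3169 at 100 CPM), activation factors (0.0236 with no filter, 0.1667 at 100 CPM), metallothioneins (0.3322 with no filter) and histones (0.5262 in negative cells). The sign changes were fatty acid oxidation under TMM (−0.0199), heat shock with no filter (0.1164) and at 100 CPM (0.1245), Myc and polyamine (0.8088) and cell cycle regulators (−0.0683) at 100 CPM, and DNA replication (−0.1459) and ribosomal proteins (0.0334) in Mki67/Top2a-negative cells. The minimum of 100 CPM had to be met only in the higher library of each gene. The cause of these shifts was not tested.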

Other observations

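Mitochondrially encoded genes, which the report does not describe, split by gene. Of 13 tested, mt-Nd6 was at 147 CPM with IL-2v and 31.6 CPM without cytokine (log2 difference 2.18), and the other 12 lay within 2-fold. The complex I genes mt-Nd5 (0.99), mt-Nd3 (0.96), mt-Nd2 (0.73) and mt-Nd1 (0.72) stood above 0, while mt-Nd4 (−0.12), mt-Co1 (−0.10), mt-Co3 (−0.04) and mt-Cytb (−0.02) lay near it. In Mki67/Top2a-negative cells 3 of the 13 were at least 2-fold higher, mt-Nd6 (2.05), mt-Nd5 (1.13) and mt-Nd3 (1.06). The count was also 3 in thinned cells, over means of single-cell CPM and without cells over 2 times the median UMIs. The 3′ sequences of mt-Nd3 and mt-Co1 are 98.0% and 78.0% shared with other annotated genes, so their values are uncertain. The metallothionein gene Mt1 was at 54.0 CPM with IL-2v and 25.8 CPM without cytokine on day 5, and at 167 and 265 CPM on day 3, so that the order of the pair was opposite on the 2 days. Myb was at 3.96 CPM with IL-2v and 33.8 CPM without cytokine on day 5, and at 31.2 and 38.5 CPM on day 3.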
